A study of Homo sapiens with 4 samples.

Results

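The proteasome genes described here are the 44 genes of the deposited expression table whose symbols run from PSMA to PSMG followed by a number, out of 18175 genes and loci listed. The name rule matched 46 genes, and 2 inducible beta subunits were left out by it. PSMA8 and PSMB11, which are known from testis and thymus, carry such names but are not among the genes listed. By role the 44 comprise 7 alpha and 8 beta subunits of the 20S core, 6 ATPases and 11 non-ATPase subunits of the 19S cap, 4 activators and 1 inhibitor of the core, and 7 assembly factors.

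Both cell lines, SK-MEL-28 and A375, are established human cutaneous melanoma lines. Each gave 1 library from cells treated with siLINC01291, a small interfering RNA against the long non-coding RNA LINC01291, and 1 from cells treated with siNC, the control siRNA of the labels. The 4 libraries are therefore SK-MEL-28 siLINC01291, SK-MEL-28 siNC, A375 siLINC01291 and A375 siNC, and the labels name no further cultures. The treatment label also names an agent "EL" for both lines, which the labels do not explain. Dose and duration of the treatment are not stated.

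The proteasome is the barrel-shaped protease that degrades most ubiquitin-tagged proteins of the cytosol and nucleus. Its 20S core is a stack of alpha and beta rings with the proteolytic sites inside, and the 19S cap recognises the ubiquitin tag, removes it and uses a ring of ATPases to unfold the substrate and feed it into the core. Dedicated chaperones guide assembly of both parts. When proteasome activity is low, the transcription factor NFE2L1 is known to raise transcription of most subunit genes together, through antioxidant response elements in their promoters.

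Depth was between 29351240 and 31815336 counts per library. LINC01291 itself had 16.2 normalised CPM (counts scaled to library size with TMM factors) in SK-MEL-28 siLINC01291 against 36.3 in SK-MEL-28 siNC, and 8.88 in A375 siLINC01291 against 25.6 in A375 siNC. It fell in the fit over both lines (log2 ratio −1.34 ± 0.13 SE, adjusted p = 0.0171, edgeR quasi-likelihood test). A fit without the cell line as a block (adjusted p = 1.00) and limma (adjusted p = 0.118) did not call it. Each of those fits called 0 of the 13501 genes tested for the treatment. Of 8 melanocyte lineage markers, PMEL stood at an FPKM (counts scaled to gene length and library size) of 1043 and 804 in the SK-MEL-28 libraries (siLINC01291 and siNC), against 2.13 and 1.64 in the A375 libraries. SOX10 stood at 147, 127, 118 and 80.1 in that order, so this lineage factor was present in both lines. PMEL, MLANA, TYR and DCT were at or below 2.13 in A375. MITF stood at 75.8, 60.6, 5.48 and 5.68 in that order, and S100B at 96.2, 97.7, 5.69 and 3.47. TYRP1 was low in both lines, at 1.83, 1.34, 0.0503 and 0.147. Of 4 markers of other cell types only KRT14 was listed, at 0.0151 and 0.0451 in SK-MEL-28 against 7.32 and 6.16 in A375, and its part in the results below was not tested.

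The transcript sites and the promoter stretch below are shown first, because the results refer to them. The sites hold TCTATGAA, the joined form of CTATGAA and TCTATGA, a pair of 7-base words that were picked on these same libraries in an earlier analysis for being frequent in 3′ untranslated regions (UTRs) of genes that were lower after siLINC01291. PSMD10 and PSMA5 are the members with TCTATGAA in the 3′ UTR and PSMD6 is the one with it in the coding sequence (GENCODE 29 principal transcripts, GRCh38). The sites lie on the minus strand at chrX:108084871-108084900 (PSMD10, 3′ UTR), chr1:109401590-109401619 (PSMA5, 3′ UTR) and chr3:64018619-64018648 (PSMD6, coding exon). Each is written 5′ to 3′ in transcript sense with the word in capitals:
PSMD10: acaagacatcaTCTATGAAtgatgaagttt
PSMA5: aatatccctatTCTATGAAgatgtctgttc
PSMD6: tctgttttcacTCTATGAAtgccgttactc

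The promoter stretch is that of PSMB3, a structural beta subunit, and covers the 120 bases before its start on the plus strand (RefSeq, GRCh38.p14, chr17:38752621-38752740). It was chosen as a member promoter that holds both motifs searched, in capitals: the antioxidant response element core TGACNNNGC, 104 bases before the start, and the NF-Y box CCAAT, 55 and 13 bases before it.
PSMB3: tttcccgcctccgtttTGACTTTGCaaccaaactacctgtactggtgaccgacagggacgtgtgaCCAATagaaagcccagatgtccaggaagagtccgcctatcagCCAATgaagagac

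Proteasome genes were expressed at a high level in all 4 libraries. Together they took 0.673% of counts in SK-MEL-28 siLINC01291 against 0.666% in SK-MEL-28 siNC, and 0.716% in A375 siLINC01291 against 0.706% in A375 siNC. In every library 38 of the 44 genes had an FPKM of at least 10. The highest was PSMA7, an alpha ring subunit, with an FPKM of 254 and 226 in SK-MEL-28 (siLINC01291 and siNC) and 215 and 220 in A375. PSMB7, the beta subunit with the trypsin-like site, followed in SK-MEL-28 with 161 and 149, and PSMB4, a structural beta subunit, in A375 with 211 and 200. PSMA7 and PSMB4 lay close in A375, and which of them leads there is not resolved with 1 library per group. The libraries are bulk RNA of a culture, in which fewer cells of a kind and less RNA per cell cannot be told apart.

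**Figure D1:**
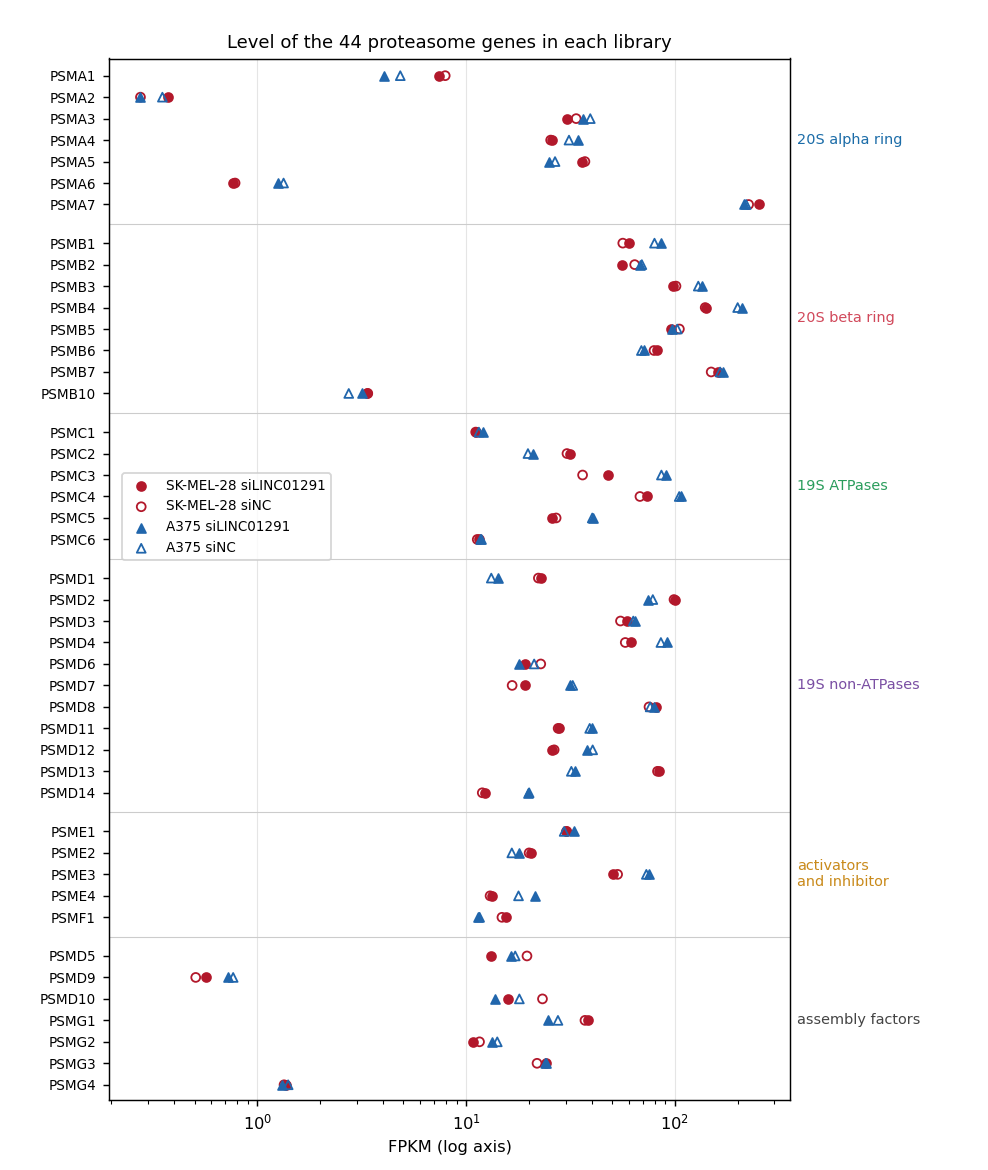
FPKM (log axis) of the 44 proteasome genes by role in the 4 libraries, 1 symbol per library: filled and open circles are SK-MEL-28 siLINC01291 and siNC, filled and open triangles A375 siLINC01291 and siNC. Most genes lie above 10, and PSMA1, PSMA2, PSMA6, PSMB10, PSMD9 and PSMG4 lie below it in all 4 libraries.

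Of the proteolytic subunits, PSMB7 had the highest level in each library, PSMB5 and PSMB6 were lower and PSMB10 was far lower. PSMB5, which carries the chymotrypsin-like site, had an FPKM of 95.9 and 105 in SK-MEL-28 (siLINC01291 and siNC) and 97.4 and 103 in A375. PSMB6, with the caspase-like site, had 82.3 and 79.5 in SK-MEL-28 and 71.5 and 69.1 in A375. PSMB7, with the trypsin-like site, had 161 and 149 in SK-MEL-28 and 170 and 165 in A375. PSMB10, the inducible subunit that replaces PSMB7 in immunoproteasomes, stood at 3.37 and 3.38 in SK-MEL-28 and 3.18 and 2.74 in A375, far below PSMB7 in each library.

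Subunits of one ring are present in equal copies in the complex, but their transcript levels were not equal. In the alpha ring, PSMA3, PSMA4 and PSMA5 lay between an FPKM of 25.02 and 39.3 over the 4 libraries, while PSMA1 had 7.46 and 7.94 in SK-MEL-28 (siLINC01291 and siNC) and 4.03 and 4.84 in A375. PSMA6 had 0.768 and 0.782 in SK-MEL-28 and 1.252 and 1.33 in A375. PSMA2 had 0.373 and 0.275 in SK-MEL-28 and 0.273 and 0.351 in A375. A chaperone of the 19S base, PSMD9, was as low, at 0.566 and 0.507 in SK-MEL-28 and 0.721 and 0.765 in A375.

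The 5 low genes PSMA1, PSMA2, PSMA6, PSMB10 and PSMD9 share a position feature. They are the members whose principal transcript is overlapped by exons of another protein-coding gene annotated on the same strand (GENCODE 29), over 43.8 to 81.0% of its length, and the other 39 members have no such overlap. The overlapping genes are AC018523.2 for PSMA1, AC010132.3 for PSMA2, AL121594.1 for PSMA6, AC040162.1 for PSMB10, and AC069503.2 and WDR66 for PSMD9. Of these, AC040162.1 (ENSG00000261884) is listed, with 41 and 35 counts in SK-MEL-28 (siLINC01291 and siNC) and 74 and 65 in A375, and the other 5 are not among the genes listed. How the counting treated reads that fall in 2 genes is not stated, and the part of the overlap in these levels was not tested.

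The separation depends little on the length by which counts are divided. Per kilobase of the principal transcript, in place of the authors' length, the 39 members without overlap had at least 15.3 CPM in every library, and their medians were 70.1 and 73.1 in SK-MEL-28 (siLINC01291 and siNC) and 72.7 and 69.7 in A375. The 5 overlapped members had at most 16.1, the value of PSMA1 in SK-MEL-28 siNC. The authors' length exceeded the principal transcript by a median of 1.79 times, with a range of 0.999 to 12.4 times. PSMG4, an assembly chaperone of the 20S core, had the largest excess (10415 against 838 bases), which put it at an FPKM of 1.31 to 1.40, among the overlapped genes. The level of single members is therefore uncertain by such factors. Both measures, each averaged over the 4 libraries, still ranked the 44 genes alike (Spearman's rho = 0.906 across genes, which share these libraries).

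**Figure D2:**
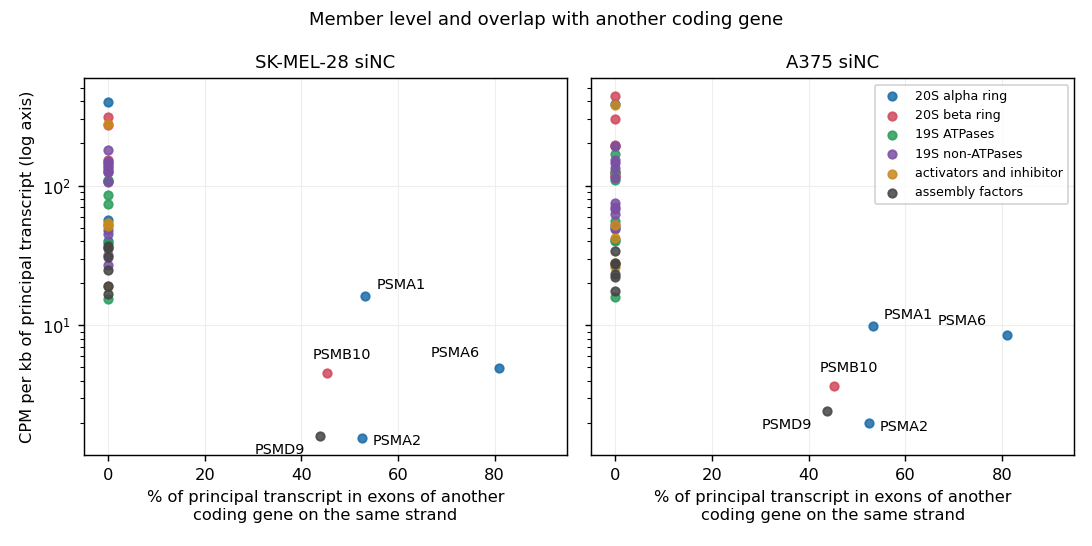
Level of the 44 genes as CPM per kilobase of the GENCODE 29 principal transcript (log axis) against the share of that transcript covered by exons of another protein-coding gene on the same strand (%), in SK-MEL-28 siNC (left) and A375 siNC (right), 1 point per gene, coloured by role. The 5 genes with an overlap of 43.8 to 81.0% lie at the lower edge, and PSMA1 alone reaches the lowest of the 39 genes without overlap, in SK-MEL-28.

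Proteasome genes were compared next between siLINC01291 and siNC. No proteasome gene passed the test over both lines. Of 42 members tested, 0 rose and 0 fell at an adjusted p under 0.05 (edgeR quasi-likelihood test, cell line as a block, Benjamini-Hochberg adjustment), where 0.222% of the 13501 genes tested rose and 0.674% fell. PSMA2 and PSMD9 were not tested because their FPKM reached 1 in too few libraries. At an unadjusted p under 0.05 there were 3 members by edgeR (PSMD10, PSMD6 and PSMD5), 2 by DESeq2 and 2 by limma. Of all 13501 genes tested, 2282 by edgeR, 1047 by DESeq2 and 2023 by limma were under that limit, a larger share each time. DESeq2 called 0 members, where 99 of all genes were called higher and 203 lower. With limma 0 genes were called at all, so its 0 members say nothing about the proteasome genes. The fit has 1 residual degree of freedom.

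Within a line there is 1 library per treatment and no test, and a change was counted as past 1.5-fold from log2 ratios of normalised counts. In SK-MEL-28, 0 of 41 expressed members were past 1.5-fold higher and 1 was past 1.5-fold lower, where 6.45% and 4.99% of all 12336 expressed genes were past those limits. In A375, 0 of 42 members were past either limit, where 4.06% (higher) and 3.86% (lower) of the 13244 genes expressed there were. The median log2 ratio of the members was −0.01 in SK-MEL-28, where that of all expressed genes was 0.01, and −0.02 in A375, where that of all was 0.00.

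Most members kept close to their siNC level. In SK-MEL-28, 31 of 41 members (75.6%) were within 1.1-fold of siNC, against 41.4% of all expressed genes, and in A375 33 of 42 (78.6%) against 45.9%. Abundant genes carry less counting error, so the shares were also taken from an FPKM of 10 upwards: there, 28 of 38 members (73.7%) against 50.3% of genes in SK-MEL-28, and 32 of 38 (84.2%) against 56.3% in A375. These shares are a description, since genes within a library are not replicates.

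**Figure D3:**
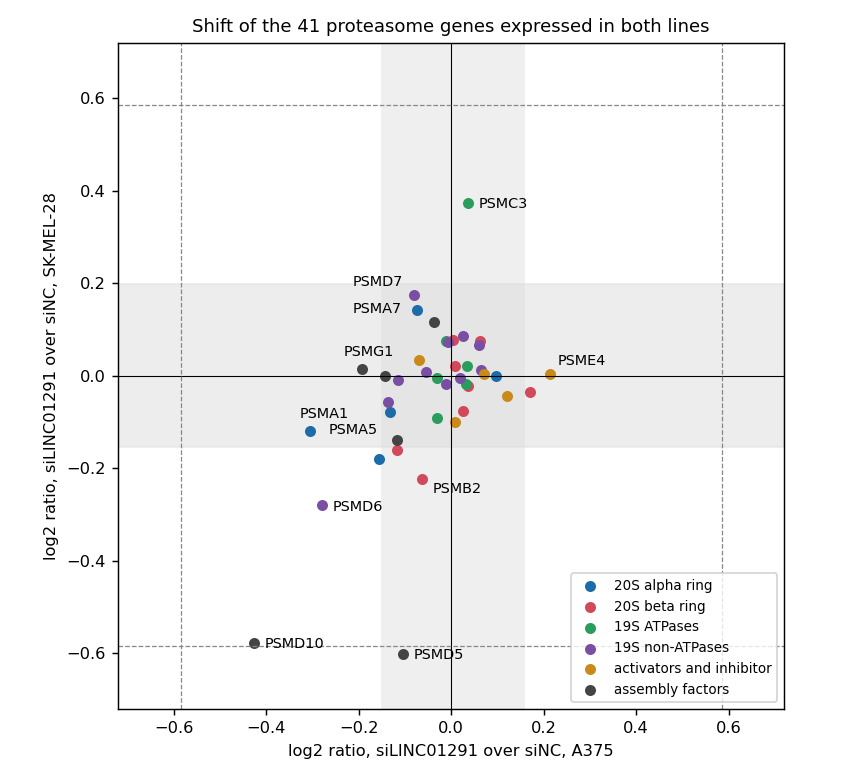
Log2 ratio of siLINC01291 to siNC in SK-MEL-28 (vertical) against that in A375 (horizontal) for the 41 members expressed in both lines, coloured by role, with grey bands for the middle 50% of all expressed genes of each line and dashed lines at 1.5-fold. PSMD5 alone lies past 1.5-fold, in SK-MEL-28, and PSMD10 and PSMD6 lie low on both axes.

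Over both lines the lowest log2 ratios were those of the assembly factors PSMD10 and PSMD5. PSMD10 (gankyrin, chrX:108084207-108091618, minus strand), a chaperone of the 19S ATPase ring that is also described as an oncoprotein binding RB1, had 39.9 normalised CPM in SK-MEL-28 siLINC01291 against 59.5 in SK-MEL-28 siNC, and 30.7 in A375 siLINC01291 against 41.3 in A375 siNC. It was thus lower with siLINC01291 in both lines, at 0.670 of siNC in SK-MEL-28 (counting interval 0.620 to 0.723) and 0.745 in A375 (0.686 to 0.807). Both intervals are exact binomial (95%) and reflect counting error alone. Over both lines the log2 ratio was −0.50 ± 0.10 SE and did not pass (adjusted p = 0.0919, edgeR). The value lay between 0.0792 and 1.00 under 7 alternatives, and with no filter on low genes it was 0.0471, past the threshold. Among those alternatives, limma and the fit without the cell line as a block called 0 genes at all.

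PSMD5, another chaperone of the 19S base (chr9:120815496-120842984, minus strand), had 60.9 normalised CPM in SK-MEL-28 siLINC01291 against 92.4 in SK-MEL-28 siNC, and 67.5 in A375 siLINC01291 against 72.6 in A375 siNC. Its log2 ratio was −0.60 in SK-MEL-28 and −0.10 in A375, so the shift lay mainly in SK-MEL-28. The fit over both lines gave −0.35 ± 0.13 SE (adjusted p = 0.263, edgeR), and the difference between lines was not tested. The chaperones of the 20S core lay closer to siNC than PSMD5 in SK-MEL-28, but PSMG1, PSMG2 and PSMG4 did not in A375. In SK-MEL-28, PSMG1, PSMG2, PSMG3 and PSMG4 had log2 ratios of 0.02, −0.14, 0.12 and −0.00, and in A375 −0.19, −0.12, −0.04 and −0.14. PSMD9, at 5.22 normalised CPM in SK-MEL-28 siLINC01291 against 4.77 in SK-MEL-28 siNC and 5.90 in A375 siLINC01291 against 6.45 in A375 siNC, was not above the level at which a member counted as expressed. Summed over the 7 assembly factors, normalised CPM came to 289 in SK-MEL-28 siLINC01291 against 338 in SK-MEL-28 siNC, and to 245 in A375 siLINC01291 against 274 in A375 siNC. These are ratios of 0.855 and 0.895, and the other 5 role groups had ratios between 0.962 and 1.04. In SK-MEL-28 the lower sum lay in PSMD10 and PSMD5, and is not a trait of the group. There PSMG3 was higher with siLINC01291 (counting interval 1.004 to 1.17) and PSMG2 was lower (0.828 to 0.997). The counting intervals of PSMG1 (0.955 to 1.07), PSMG4 (0.870 to 1.15) and PSMD9 (0.859 to 1.40) included 1. In A375 all 6 expressed assembly factors were lower, where 50.07% of all expressed genes were.

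Of the 11 non-ATPase subunits of the cap, PSMD6, a lid subunit (chr3:64010549-64024010, minus strand), was the lowest. It had 182 normalised CPM in SK-MEL-28 siLINC01291 against 221 in SK-MEL-28 siNC, and 152 in A375 siLINC01291 against 184 in A375 siNC. Its log2 ratio was −0.28 in each line, with −0.28 ± 0.08 SE over both (adjusted p = 0.173, edgeR). The other 10 lay between −0.06 and 0.17 in SK-MEL-28 and between −0.14 and 0.06 in A375. PSMD14, the deubiquitinase of the lid, had 94.2 normalised CPM in SK-MEL-28 siLINC01291 against 93.8 in SK-MEL-28 siNC, and 136 in A375 siLINC01291 against 141 in A375 siNC. PSMD4, a ubiquitin receptor, had 196 against 188 in SK-MEL-28 and 259 against 249 in A375, in the same order of treatments.

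Among the 6 ATPases PSMC3 stood apart in SK-MEL-28. It had 114 normalised CPM in SK-MEL-28 siLINC01291 against 88.3 in SK-MEL-28 siNC, and 193 in A375 siLINC01291 against 188 in A375 siNC. The log2 ratio was 0.37 in SK-MEL-28, the highest of the 41 expressed members there, and 0.04 in A375, with 0.20 ± 0.11 SE over both lines (adjusted p = 0.403, edgeR). PSMC1, PSMC2, PSMC4, PSMC5 and PSMC6 lay between −0.09 and 0.08 in SK-MEL-28 and between −0.03 and 0.03 in A375.

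The core subunits were described by ring. The 5 alpha subunits other than PSMA2 and PSMA6 ran from −0.18 (PSMA3) to 0.14 (PSMA7) in SK-MEL-28 and from −0.30 (PSMA1) to 0.10 (PSMA4) in A375. PSMA1 had 23.9 normalised CPM in SK-MEL-28 siLINC01291 against 25.99 in SK-MEL-28 siNC, and 11.5 in A375 siLINC01291 against 14.2 in A375 siNC. PSMA6 had log2 ratios of −0.05 in SK-MEL-28 and −0.13 in A375, and PSMA2, under 4 normalised CPM in each library, is given by its levels only. The 8 beta subunits ran from −0.22 (PSMB2) to 0.08 (PSMB7) in SK-MEL-28 and from −0.12 (PSMB5) to 0.17 (PSMB10) in A375. PSMB5, the target of bortezomib, had 156 normalised CPM in SK-MEL-28 siLINC01291 against 175 in SK-MEL-28 siNC, and 141 in A375 siLINC01291 against 153 in A375 siNC.

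Activators and the inhibitor lay between −0.10 (PSME3) and 0.03 (PSMF1) in SK-MEL-28, and between −0.07 (PSMF1) and 0.21 (PSME4) in A375. PSME4, the large nuclear activator known from histone turnover in spermatogenesis, had 146 normalised CPM in SK-MEL-28 siLINC01291 against 145 in SK-MEL-28 siNC, and 206 in A375 siLINC01291 against 178 in A375 siNC. PSME1 and PSME2, the interferon-inducible activator pair, had log2 ratios of −0.04 and 0.00 in SK-MEL-28 and 0.12 and 0.07 in A375. Across the 41 members expressed in both lines the ratios of SK-MEL-28 and A375 correlated at Pearson's r = 0.530 and Spearman's rho = 0.387, and 25 (61.0%) had the same sign, against 64.8% of all genes expressed in both. The lines share no library, and no p is given across genes.

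**Figure D4:**
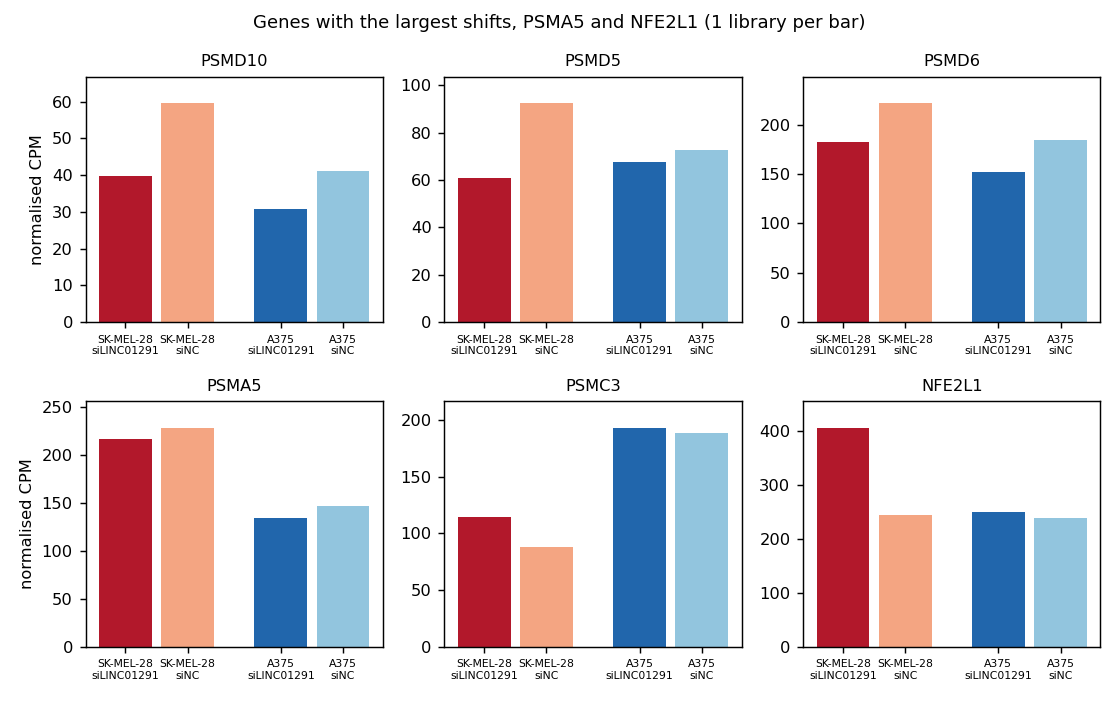
Normalised CPM of PSMD10, PSMD5, PSMD6, PSMA5, PSMC3 and the transcription factor NFE2L1 in the 4 libraries, 1 bar per library, with siLINC01291 in the darker shade left of siNC, SK-MEL-28 in red and A375 in blue. PSMD10 and PSMD6 are lower with siLINC01291 in both lines, while PSMD5, PSMC3 and NFE2L1 differ mainly in SK-MEL-28.

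The site sequences shown above were then set beside these values. PSMD10 and PSMD6, which had low ratios in each line, both hold TCTATGAA, while PSMA5 with the same word in a much longer 3′ UTR (2982 bases, against 767 in PSMD10) had 216 normalised CPM in SK-MEL-28 siLINC01291 against 228 in SK-MEL-28 siNC, and 134 in A375 siLINC01291 against 147 in A375 siNC. Its log2 ratio over both lines was −0.11 ± 0.08 SE (adjusted p = 0.578, edgeR). PSMD6 holds 2 further CTATGAA sites in its coding sequence and none in the 3′ UTR. CTATGAA or TCTATGA, not joined, is also in the coding sequence of PSMA1, PSMA3, PSMA5, PSMB4, PSMB5, PSMD2, PSMD3, PSMD11, PSMD13, PSME4 and PSMG2. Their log2 ratios over both lines ran from −0.21 (PSMA1) to 0.11 (PSME4). PSMD5 holds neither word anywhere in its principal transcript.

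Among 10727 tested genes with a searched 3′ UTR, those with TCTATGAA in the 3′ UTR alone (362 genes) had a median log2 ratio of −0.24 over both lines, and 80.1% were below 0. Genes with it in the coding sequence alone (415) had a median of −0.10, with 68.9% below 0, and genes with it in neither (9927) had a median of 0.01, with 46.7% below 0. As the words were picked on these libraries, these medians are descriptions and do not bear independently on PSMD10 or PSMD6. Either 7-base word was present in the 3′ UTR of 5 of 42 members with a searched 3′ UTR (11.9%: PSMA2, PSMA5, PSMD10, PSMD12 and PSMF1), against 14.4% of the tested genes, so the members held it at about the share of all genes.

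Partner genes outside the name rule were taken from a list of 31 that regulate, assemble or work with the proteasome, all found. By the same test 0 of 31 rose and 0 fell, with 4 at an unadjusted p under 0.05 (edgeR). That is a smaller share than the 2282 of all 13501 genes tested under the same limit. In SK-MEL-28, 2 of 31 were past 1.5-fold higher and 0 lower, where 6.45% and 4.99% of all expressed genes were, so the first share is that of the background. In A375 0 were past either limit (4.06% and 3.86% of all). These were NFE2L1 and MAFF, a small MAF protein that partners NFE2L1 on DNA. NFE2L1 had 406 normalised CPM in SK-MEL-28 siLINC01291 against 244 in SK-MEL-28 siNC, and 249 in A375 siLINC01291 against 239 in A375 siNC. Its log2 ratio over both lines was 0.40 ± 0.16 SE (adjusted p = 0.270, edgeR), and its level was thus high in a single library.

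MAFF had 78.0 normalised CPM in SK-MEL-28 siLINC01291 against 47.2 in SK-MEL-28 siNC, and 26.04 in A375 siLINC01291 against 27.8 in A375 siNC (log2 ratio over both lines 0.33 ± 0.19 SE, adjusted p = 0.447, edgeR). It was thus high in the same library as NFE2L1. The relatives of NFE2L1 lay the other way without passing: NFE2L2 had 196 normalised CPM in SK-MEL-28 siLINC01291 against 243 in SK-MEL-28 siNC, and 78.9 in A375 siLINC01291 against 88.4 in A375 siNC (log2 ratio over both lines −0.24 ± 0.09 SE, adjusted p = 0.250, edgeR). NFE2L3 had 13.4 in SK-MEL-28 siLINC01291 against 18.7 in SK-MEL-28 siNC, and 28.2 in A375 siLINC01291 against 30.8 in A375 siNC (−0.29 ± 0.13 SE, adjusted p = 0.324, edgeR). POMP, the maturation factor of the core, had 184 normalised CPM against 188 in SK-MEL-28 and 212 against 207 in A375, siLINC01291 before siNC. Of the cap subunits named outside the PSM series, the ubiquitin receptor ADRM1 had log2 ratios of 0.06 in SK-MEL-28 and −0.21 in A375, and SEM1 had 0.01 in SK-MEL-28 and 0.07 in A375.

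The antioxidant response element core TGACNNNGC, searched on both strands of the 300 bases around each start (250 before, 50 after), was present in 12 of 38 members with a RefSeq promoter (31.6%) and in 13.6% of 27305 promoters. CCAAT, which does not overlap that core in the PSMB3 stretch shown above, was present in 17 of 38 (44.7%) and in 35.7%. PSMB3 itself had 120 normalised CPM in SK-MEL-28 siLINC01291 against 127 in SK-MEL-28 siNC, and 148 in A375 siLINC01291 against 145 in A375 siNC. The 12 members with the core had a median log2 ratio of 0.00 in SK-MEL-28 and −0.01 in A375. The 26 members without it had medians of −0.02 in SK-MEL-28 and −0.06 in A375. A match of letters is a description and not a binding site.

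Differences between the lines were larger than those between treatments. In the same fit, 27 of 42 members (64.3%) differed between SK-MEL-28 and A375 at an adjusted p under 0.05, 13 higher and 14 lower in SK-MEL-28. Of all genes tested, 36.1% were higher and 36.3% lower in SK-MEL-28, so the members' share lies near the background. Each line stands here as 2 libraries of unlike treatment, so p-values measure no spread between like cultures of a line. Summed over the 44 members, normalised CPM came to 7066 and 7136 in SK-MEL-28 (siLINC01291 and siNC) and to 6660 and 6756 in A375. The split of calls moved with scaling: 9 were higher and 17 lower with library totals, and 9 higher and 16 lower with limma on FPKM. All genes moved the same way: of 13501 tested, 4091 were higher and 5831 lower with library totals, and 4056 and 5787 with limma. Those settings moved the median of all genes to −0.19 and −0.15, against −0.02 in the main fit.

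PSMD13, a lid subunit (chr11:236546-252984, plus strand), differed most. It had 384 and 385 normalised CPM in SK-MEL-28 (siLINC01291 and siNC) and 135 and 133 in A375, 2.86-fold higher in SK-MEL-28 (log2 ratio 1.52 ± 0.08 SE, adjusted p = 1.01e-05, edgeR). The libraries of the lines did not overlap, which was not counted over all genes, and those of a line lay within a few CPM of each other. SIRT3, which overlaps 15.9% of its principal transcript on the opposite strand, had 1088 and 890 counts in SK-MEL-28 and 359 and 290 in A375. As strand-specific counting is not stated, reads of that overlap cannot be assigned to either gene with certainty.

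Among the remaining cap subunits, the scaffold subunits of the base were higher in SK-MEL-28. PSMD1 had 379 and 376 normalised CPM in SK-MEL-28 (siLINC01291 and siNC) and 209 and 200 in A375 (log2 ratio 0.88 ± 0.08 SE, adjusted p = 9.64e-05, edgeR). PSMD2, the docking site of ubiquitin shuttles, had 524 and 527 in SK-MEL-28 and 345 and 373 in A375 (0.55 ± 0.08 SE, adjusted p = 0.000761, edgeR). PSMD6 was higher as well, by 0.26 on the log2 scale.

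Lower in SK-MEL-28 were PSMD7 (log2 ratio −0.68), PSMD14 (−0.56), PSMD12 (−0.41), PSMD4 (−0.41) and PSMD11 (−0.35). PSMD7 and PSMD14, which form the deubiquitinating pair of the lid, were thus both lower: PSMD7 had 54.4 and 48.2 normalised CPM in SK-MEL-28 and 79.5 and 84.0 in A375, and PSMD14 had 94.2 and 93.8 in SK-MEL-28 and 136 and 141 in A375. For PSMD7, 50.4% of the principal transcript is overlapped on the opposite strand by AC009120.2, which had 47 and 36 counts in SK-MEL-28 and 263 and 270 in A375. Its part in the difference was not tested. The lid subunit PSMD11 had 207 and 210 in SK-MEL-28 and 264 and 266 in A375, and PSMD12, also of the lid, had 146 and 151 in SK-MEL-28 and 188 and 207 in A375. PSMD3 and PSMD8 did not pass, with log2 ratios of −0.01 and 0.17.

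The ATPases split in direction although they form 1 ring. PSMC2 had 286 and 282 normalised CPM in SK-MEL-28 (siLINC01291 and siNC) and 168 and 164 in A375 (log2 ratio 0.77 ± 0.08 SE, adjusted p = 0.000192, edgeR). PSMC3 had 114 and 88.3 in SK-MEL-28 and 193 and 188 in A375, 1.90-fold lower in SK-MEL-28 (−0.93 ± 0.11 SE, adjusted p = 0.000341, edgeR). These subunits are neighbours in the ring. PSMC4 was lower (−0.42), with 196 and 186 in SK-MEL-28 and 255 and 257 in A375. PSMC5 was lower too (−0.45), with 116 and 124 in SK-MEL-28 and 162 and 165 in A375, and PSMC1 and PSMC6 did not pass (0.08 and 0.12). FTSJ3, which overlaps 27.2% of the PSMC5 transcript on the opposite strand, had 3082 and 3178 counts in SK-MEL-28 and 10975 and 9917 in A375. NRDE2 overlaps 82.2% of the PSMC1 transcript in the same way, with 602 and 669 counts in SK-MEL-28 and 678 and 673 in A375. The part of these overlaps was not tested.

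**Figure D5:**
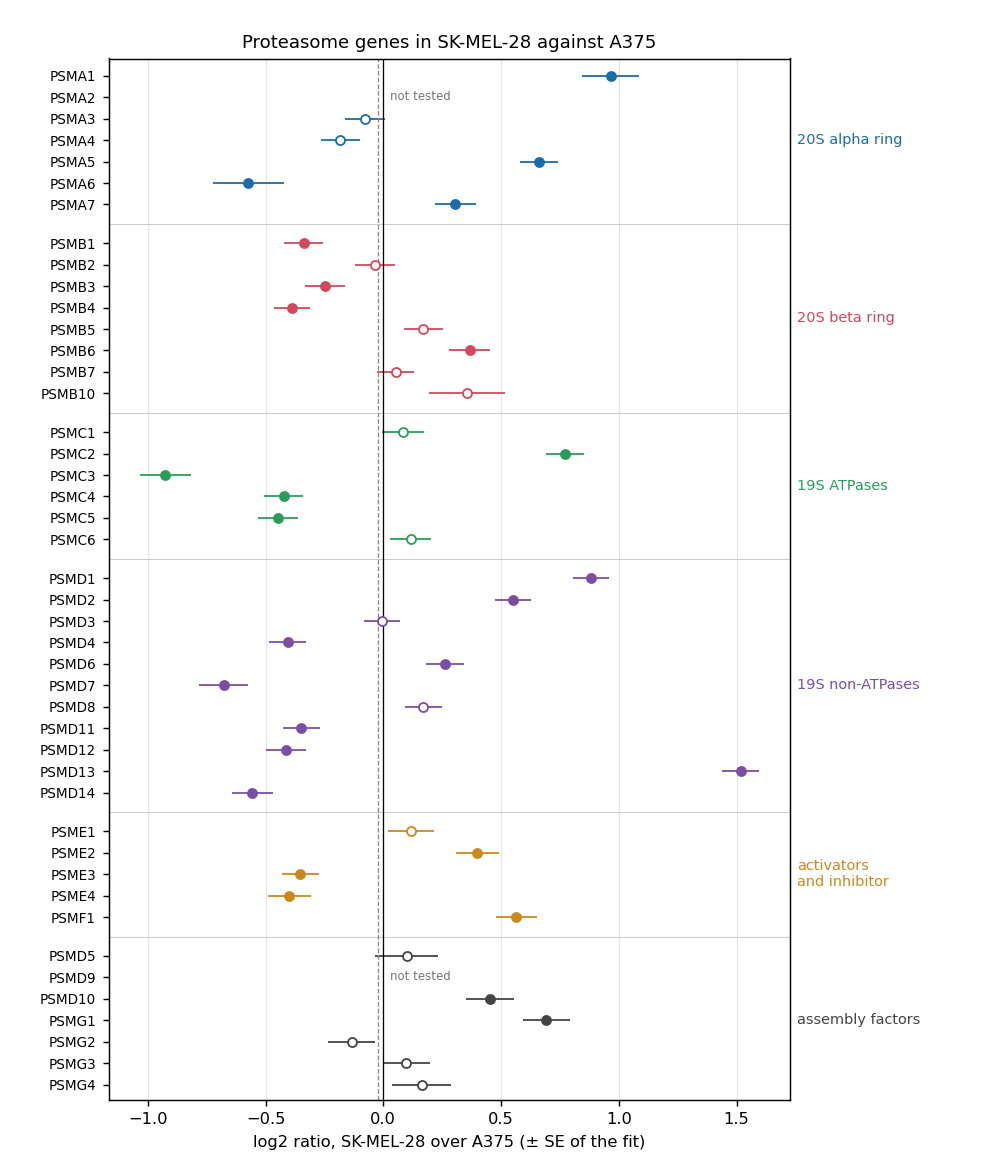
Log2 ratio of SK-MEL-28 to A375 for the members by role, with the SE of the fit as bars. Filled points passed an adjusted p under 0.05 in edgeR, open points did not, and the dashed line marks the median of all genes tested (−0.02). PSMD13 lies farthest right at 1.52 and PSMC3 farthest left at −0.93.

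Of the alpha subunits, PSMA1 (log2 ratio 0.97 ± 0.12 SE, adjusted p = 0.000459, edgeR), PSMA5 (0.66) and PSMA7 (0.31) were higher in SK-MEL-28 and PSMA6 (−0.57) was lower. PSMA7 no longer passed with library totals, upper-quartile factors or limma, and PSMA6, which has under 10 normalised CPM in each library, did not pass in DESeq2 (adjusted p = 0.196). PSMA6 had 5.26 and 5.46 in SK-MEL-28 (siLINC01291 and siNC) and 7.599 and 8.34 in A375. PSMA3 and PSMA4 did not pass (−0.08 and −0.18), and PSMA4 had 191 and 191 in SK-MEL-28 and 223 and 209 in A375.

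Of the beta subunits PSMB6 was higher (0.37), a call lost with library totals and limma, and PSMB4 (−0.39), PSMB1 (−0.34) and PSMB3 (−0.25) were lower. PSMB6 had 125 and 123 normalised CPM in SK-MEL-28 (siLINC01291 and siNC) and 96.6 and 96.0 in A375. PSMB4 had 314 and 319 in SK-MEL-28 and 418 and 408 in A375, and PSMB1, a structural subunit, had 141 and 134 in SK-MEL-28 and 178 and 170 in A375. The libraries of the lines did not overlap for these 3 genes, which were named because they were called. How many of all genes have no such overlap was not counted, and 36.1% were called higher and 36.3% lower. The call of PSMB3 was lost without the treatment term, with no filter and in DESeq2. PSMB2, PSMB5, PSMB7 and PSMB10 did not pass (−0.04, 0.17, 0.05 and 0.36), and the sign of PSMB7 turned with library totals, upper-quartile factors and limma. The catalytic subunits PSMB5 and PSMB7 were therefore not shown to differ between the lines.

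PSMF1, the inhibitor, had 169 and 165 normalised CPM in SK-MEL-28 (siLINC01291 and siNC) and 110 and 115 in A375 (log2 ratio 0.57 ± 0.09 SE, adjusted p = 0.00119, edgeR). PSME2 was higher too (0.40), with 77.2 and 77.0 in SK-MEL-28 and 59.8 and 56.9 in A375, a call lost with library totals and limma. PSME4 (−0.40) and PSME3 (−0.35), the nuclear activators, were lower, PSME3 with 274 and 294 in SK-MEL-28 and 364 and 361 in A375. PSME1 did not pass (0.12), with 56.1 and 57.8 in SK-MEL-28 and 54.7 and 50.3 in A375. Of the assembly factors PSMG1, a chaperone of the alpha ring, had 86.6 and 85.7 in SK-MEL-28 and 49.8 and 56.9 in A375 (0.69 ± 0.10 SE, adjusted p = 0.000883, edgeR), while its partner PSMG2 had 31.2 and 34.3 in SK-MEL-28 and 34.4 and 37.3 in A375 and did not pass (−0.13). PSMD10 was higher in SK-MEL-28 (0.45), and PSMD5, PSMG3 and PSMG4 did not pass (0.10, 0.10 and 0.16).

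Of the 31 partner genes, 11 were higher and 5 lower in SK-MEL-28, where 36.1% of all genes tested were higher and 36.3% lower. PAAF1, a further factor bound to the 19S ATPases, had 54.9 and 45.4 normalised CPM in SK-MEL-28 (siLINC01291 and siNC) and 15.3 and 13.4 in A375 (log2 ratio 1.80 ± 0.11 SE, adjusted p = 1.59e-05, edgeR). DDI2, the protease that activates NFE2L1, had 191 and 165 in SK-MEL-28 and 83.8 and 84.2 in A375 (1.08 ± 0.10 SE, adjusted p = 0.000101, edgeR), and NFE2L1 itself did not pass (0.37). NFE2L2, a relative of NFE2L1 that binds the same element, was higher (1.38 ± 0.09 SE, adjusted p = 2.44e-05, edgeR), and NFE2L3 was lower (−0.90 ± 0.13 SE, adjusted p = 0.000933, edgeR). VCP, the unfoldase upstream of the proteasome, was higher by 0.72. Without the 3 tested members that a coding gene overlaps on the same strand, 12 members were higher and 13 lower of 39.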

How the data were processed

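Polyadenylated RNA was captured with oligo(dT) and read on an Illumina sequencer, per the labels. Reads were cleaned with fastp, aligned with HISAT2 and, per the labels, counted by the authors with HTSeq as whole-number counts per gene, which were deposited without normalisation. The submitters' processing notes name the build hg19, DESeq2 and edgeR, without a role. The annotation release and strand setting are not stated. CPM were deposited by the authors as counts over each library's total, FPKM were deposited by the authors as CPM over a single length per gene, and TPM deposited by the authors were not used for any comparison.

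Members and lists were chosen with earlier results of these data known, so nothing here is independent of them. Members were matched by symbol. Within a line, edgeR (version 4.0.16, in R 4.3.3) gave log2 ratios with TMM factors and 2 prior counts, and a gene was expressed where its FPKM reached 1 in either library. Calls over both lines, and SK-MEL-28 against A375, came from edgeR's quasi-likelihood test with terms for line and treatment on the 13501 genes whose FPKM reached 1 in 2 or more libraries. The pairing comes from the cell line. With 1 library per line and treatment, p-values rest on how far the treatment ratio differs between the lines and on variance estimates shared across genes. They measure no spread between cultures of a group. Alternatives were DESeq2 1.42.0, limma 3.58.1 on log2(FPKM + 1), other scalings and filters, and a fit without the second term. The fit was tested on simulated counts. Every member is given by role. A gene first placed on the partner list was taken off it and is not analysed here. Values in each library are given for members called in a test, for the 3 highest and 3 lowest ratios per line at an FPKM of at least 5, and for the members and partners a statement rests on, some of which were chosen after their values were seen.

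Positions, transcripts and coding overlaps come from GENCODE 29 on GRCh38, and promoters from RefSeq (38 of 44 members matched). Depth was 29351240 to 31815336 counts per library, and counting precision is given as exact binomial 95% intervals. Annotation and drawing ran in Python 3.11.15 (pandas 2.3.3, matplotlib 3.10.9).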

Additional observations from a re-analysis of the deposited data

Results flagged for a closer look

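The ratio of siLINC01291 to siNC had opposite signs in the lines for PSMA7 and PSMD7, with counting intervals on either side of 1, and the difference between lines was not tested. PSMA7, an alpha ring subunit, had 469 normalised CPM in SK-MEL-28 siLINC01291 against 424 in SK-MEL-28 siNC, and 351 in A375 siLINC01291 against 369 in A375 siNC. Its log2 ratio in SK-MEL-28 exceeded that in A375 by 0.216. PSMD7, a lid subunit, had 54.4 in SK-MEL-28 siLINC01291 against 48.2 in SK-MEL-28 siNC, and 79.5 in A375 siLINC01291 against 84.0 in A375 siNC, a difference between the lines of 0.255 on the log2 scale. The counting intervals of PSMD7 were 1.05 to 1.22 in SK-MEL-28 and 0.896 to 0.998 in A375, so the second ends close to 1.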

How the results depend on the processing

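With library totals in place of TMM factors the median log2 ratio of the members changed sign, to 0.02 in SK-MEL-28 (0.0236) and 0.02 in A375 (0.0216) for siLINC01291 against siNC, and to −0.0760 for SK-MEL-28 against A375, and 0 members were past 1.5-fold in SK-MEL-28. In the fits with library totals the median of all genes tested moved in the same directions. It was 0.0423 for the treatment over both lines, against 0.007 in the main fit. Between the lines it was −0.19, against −0.0215. A looser limit, a log2 ratio of 0.32 either way, gave 3 members in SK-MEL-28 (1 higher, 2 lower) and 1 lower in A375, and a limit of 2-fold gave 0 in SK-MEL-28. The shares of all expressed genes past these limits are not given here, so the counts are not read as a result about the members. With no filter on low genes 1 member was called over both lines, PSMD10 (lower, adjusted p = 0.0471, edgeR). That fit called 146 of all 18175 genes higher and 238 lower. PSMB7, not called between the lines, changed sign with limma (−0.112), upper-quartile factors (−0.0728) and library totals (−0.116). The cause was not tested. Without the cell line as a block 0 members were called for the treatment, where that fit called 0 of all genes tested. Without the treatment term 24 members were called between the lines, where that fit called 4344 of all 13501 genes tested higher and 4257 lower. Leaving out a library leaves no residual degrees of freedom, so the values within each line stand in for it. With 1 library per group, depth limits members of few counts, PSMA2, PSMA6, PSMB10 and PSMD9, most.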
